A study of Homo sapiens with 8 samples.

Results

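Genes whose RNA was higher in HERVH knockdown cells are described, namely VGF, MIR4435-2HG, GLIPR1L1 and RAB13. They were selected on the contrast between HERVH KD and WT libraries, as 4 of the 19 genes called up there (0.0809% of 23474 genes tested). Metallothionein and actin-linked genes of that set were left aside. Other genes of the set outside these classes, such as SFN and ZNF239, were also not among the 4. The values of that contrast therefore chose these genes and are given as a description, with no test. A call needed a Benjamini-Hochberg adjusted p (FDR) below 0.01 over all genes tested in edgeR's quasi-likelihood test and a change of at least 2-fold. MT1M (FDR = 0.00974) and SYNJ2 (FDR = 0.00974) lay just inside this limit in the edgeR test, and JADE2 (FDR = 0.0105) and SHC3 (FDR = 0.0107) just outside it.

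RNA-seq was compared in H9 cells, a line of human embryonic stem cells (hESCs), with 2 replicates in each of 4 conditions. The WT cells were untreated and carried HA-tagged CHD7. The HERVH KD cells had the same background and received LNA-GapmeRs, antisense oligonucleotides that direct cleavage of matching RNA, for 24 h. The CHD7 KO cells lacked CHD7 on both alleles, made by CRISPR/Cas9 editing, and the HERVH KO cells lacked a single HERVH element on chromosome 2, in clones grown out after the deletion. The labels name no control oligonucleotide among these libraries, and the study's protocol dissociated and transfected cells for knockdown. Loss of HERVH RNA and the transfection itself thus cannot be told apart in the contrast of HERVH KD with WT. All comparisons with WT use the same 2 WT libraries, and nothing in the labels says that replicates came from separate cultures, so that the p-values measure the spread between these libraries only.

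HERVH is a family of endogenous retroviruses, remnants of ancient infections of the germ line, whose copies are transcribed strongly in human pluripotent cells. CHD7 is a chromatin remodeler found at enhancers. Of the genes described, VGF encodes a precursor of secreted neuropeptides and is a classical target of nerve growth factor and cAMP signalling. MIR4435-2HG is a long non-coding RNA (lncRNA) gene that hosts a microRNA, GLIPR1L1 encodes a CAP-domain protein known from sperm, and RAB13 encodes a small GTPase that delivers vesicles to cell junctions and the plasma membrane.

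Libraries held 14802049 to 23156445 reads counted on genes, so that 3 counts equalled 0.128 to 0.218 CPM (read counts scaled to library size by TMM). These limits cover counting error only. CHD7 fell in CHD7 KO cells from 651.0 and 649.5 CPM to 197.3 and 197.2 CPM (log2 fold change -1.72, FDR = 2.25e-05, edgeR). HERVH copies are not genes of these counts, but ESRG, a lncRNA transcribed from an HERVH copy and chosen after the values were seen, fell in HERVH KD cells from 467.9 and 336.6 CPM to 170.4 and 158.4 CPM (log2 fold change -1.29, FDR = 0.00605, edgeR). The summed level of the 6 pluripotency markers was 4516 to 4759 CPM in WT and 4850 to 5115 CPM in HERVH KD libraries. Replicates lay farther apart in HERVH KD than elsewhere, with a median SD of 0.254 on the log2 scale over 12704 genes against 0.0821 to 0.125 in the other conditions. Across genes, the difference between the HERVH KD replicates followed GC content with a Spearman correlation of 0.718, against -0.126 to 0.425 in the other conditions, where genes are not independent replicates.

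The LNA-GapmeRs are shown because a direct match would bear on the members themselves. Their sequences, 5′ to 3′, were as designed by the study.

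SHHERVH_3: ggaagatttgggacga

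SHHERVH_4: attgggacctagctcg

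SHHERVH_12: atgtggagtgggtagc

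Each of the 3 GapmeRs has 16 bases, and their exact complements occur in transcripts of 2, 3 and 4 of 64476 genes, in the order given. None of the 4 genes is among these. The best match to SHHERVH_3, SHHERVH_4 and SHHERVH_12 anywhere in the gene body had 5, 6 and 5 mismatches in VGF and 3, 4 and 4 in MIR4435-2HG. It had 4, 5 and 4 mismatches in GLIPR1L1 and 5, 5 and 4 in RAB13. The body searched was 517.4 kb long for MIR4435-2HG and 3.06 kb for VGF, and a longer body offers more places to match. In transcripts alone the best match had 5, 6 and 5 mismatches in VGF and 5, 5 and 4 in MIR4435-2HG. There it had 5, 7 and 5 mismatches in GLIPR1L1 and 5, 5 and 5 in RAB13.

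VGF (ENSG00000128564), with the largest change of the 4 genes in HERVH KD cells, lies on chromosome 7 at chr7:100805790-100808850 of GRCh37, on the minus strand. It had 348 and 296 reads in the WT replicates, 2544 and 2659 in HERVH KD, 293 and 288 in CHD7 KO, and 339 and 227 in HERVH KO. Scaled to library size, the level was 16.1 and 13.8 CPM in WT, 139.3 and 193.7 CPM in HERVH KD, 13.5 and 15.5 CPM in CHD7 KO, and 14.5 and 12.2 CPM in HERVH KO. Both HERVH KD libraries stood far above the other 6, which spanned 12.2 to 16.1 CPM and overlapped. The log2 fold change in HERVH KD was 3.48 (SE 0.211), or 11.1-fold, the 3rd largest among the 19 genes called up. Per kilobase of exon the mean level was 5.58 ± 0.587 RPKM (SD, n = 2) in WT and 62.1 ± 14.3 RPKM (SD, n = 2) in HERVH KD cells.

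The contrasts that did not choose VGF showed no call. Its log2 fold change was -0.04 (SE 0.201, FDR = 0.974) in CHD7 KO and -0.16 (SE 0.201, FDR = 1.0) in HERVH KO cells by edgeR. Called genes made up 0.337% up and 0.234% down of the genes tested in CHD7 KO and 0.0298% down in HERVH KO cells. No gene was called up in HERVH KO cells by edgeR, where 617 genes had an unadjusted p below 0.05, nor by DESeq2. VGF is among the most GC-rich genes tested, with 69.8% GC in its exons, above 99.7% of the genes tested. Its HERVH KD replicates stood 3.21 and 3.69 above the WT mean on the log2 scale, the higher one being replicate 2, in which GC-rich genes were higher. With a correction for GC content the log2 fold change was 3.22, against 3.48 without it. Few genes have the GC content of VGF, so few guide the correction there. The part of the GC trend in the rise was not tested.

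**Figure D1:**
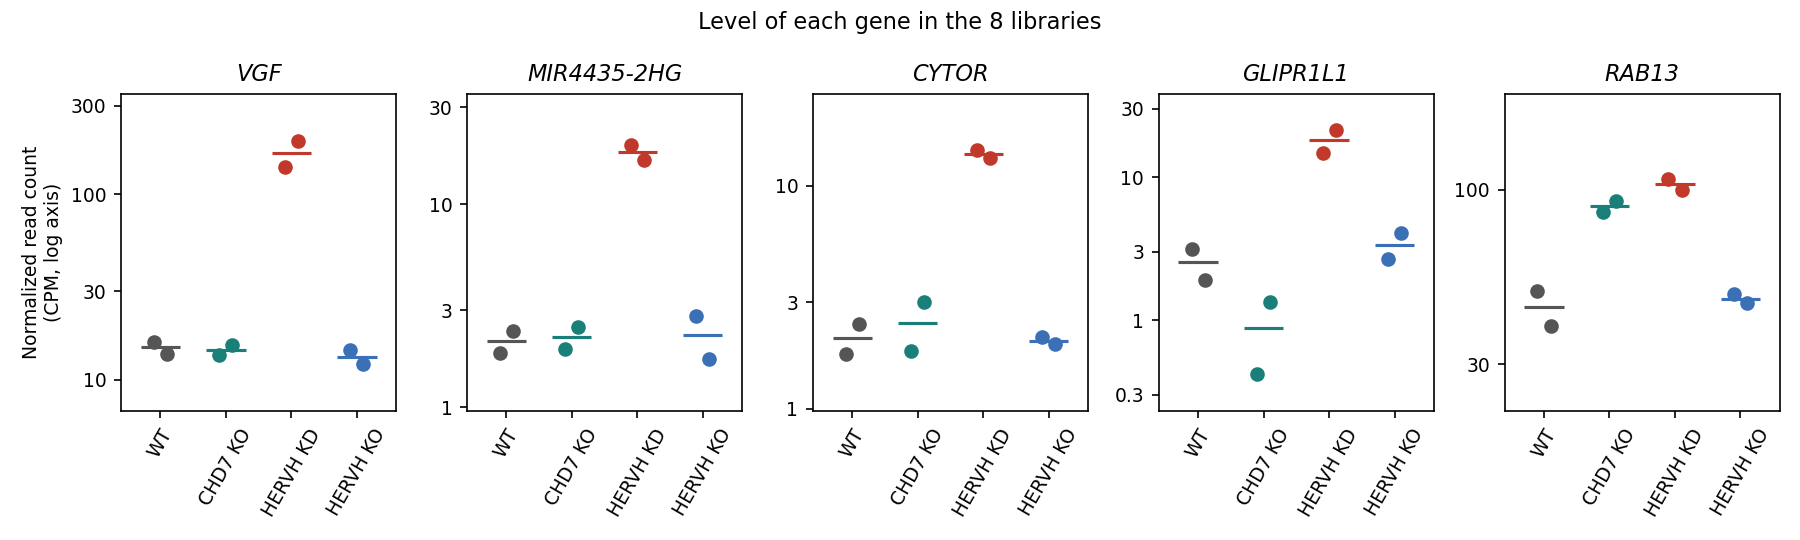
Normalized read counts (CPM, log axis with its own range in each panel) of VGF, MIR4435-2HG, its near-identical copy CYTOR, GLIPR1L1 and RAB13 in the 8 libraries. Points are the 2 replicates of a condition and bars their mean. The HERVH KD libraries lie above all others in every panel, with the CHD7 KO libraries close below them for RAB13 (85.8 and 92.6 CPM against 108.1 and 100.1 CPM) and lowest of all conditions for GLIPR1L1.

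The 250 bases before the start of VGF are shown because they hold the element through which cAMP signalling is known to act on this gene. The sequence is RefSeq's, found once on GRCh37 at chr7:100808851-100809100, and is printed on the gene's strand, with capitals for each motif searched.

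VGF: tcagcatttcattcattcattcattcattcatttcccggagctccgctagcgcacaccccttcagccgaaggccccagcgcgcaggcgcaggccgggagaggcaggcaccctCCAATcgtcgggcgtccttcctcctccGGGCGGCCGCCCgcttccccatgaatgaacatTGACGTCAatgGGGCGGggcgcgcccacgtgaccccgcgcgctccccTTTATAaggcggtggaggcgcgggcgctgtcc

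The cAMP response element TGACGTCA began 79 bases before the start, and 1.65% of 35116 RefSeq promoter windows of this length held it on either strand. GC boxes (GGGCGG or its complement) began 111, 105 and 68 bases before the start, a CCAAT box at 138 and the complement of TATAAA at 32. GC boxes were in 42.6%, CCAAT boxes in 32.0% and TATAAA in 10.7% of the windows. GC content was 66.0% against a median of 58.0% over all windows. The other motifs searched, on both strands, were AP-1 (TGANTCA), CARE (TGATGNAA, in 3.14% of windows) and TEAD (GGAATG, in 11.9%), none of which was found here. A match of letters is a description and not evidence of binding.

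A list of genes of the cAMP and neurotrophin response was read beside VGF. Of 24 genes on this list, 21 were tested. In HERVH KD cells 0 were called up and 1 down by edgeR, beside 0.0809% up and 0.136% down among all genes. At these shares, 0 called up says little about a list of this size. The median log2 fold change of the list was -0.24, against 0.04 over all genes tested. The gene called down was FOSB, an immediate early transcription factor, with 38.7 and 21.7 CPM in WT and 1.04 and 1.82 CPM in HERVH KD (log2 fold change -4.43, FDR = 0.00733). FOS, of the same family, had a log2 fold change of -1.96 (FDR = 0.0164, edgeR), and NTRK3, a neurotrophin receptor, of -1.30 (FDR = 0.0395, edgeR), both past an FDR of 0.05 only. BDNF, a neurotrophin whose gene also answers cAMP, had a log2 fold change of -0.06 (FDR = 0.927, edgeR).

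VGF protein travels in the regulated secretory pathway, in which granins and prohormones are packed into dense-core granules and cut by convertases. All 20 genes of this list were tested, and in HERVH KD cells 0 were called up and 1 down. Among all genes, 0.0809% were called up and 0.136% down. The median log2 fold change of the list was -0.09. The gene called down was SYT7, a calcium sensor for granule release, with a log2 fold change of -1.5 (FDR = 0.00848, edgeR). PCSK2, a prohormone convertase, had 5.82 and 3.09 CPM in WT and 0.493 and 1.24 CPM in HERVH KD (log2 fold change -2.41, FDR = 0.0213, edgeR). SCG5, the chaperone of that convertase, had a log2 fold change of -1.03 (FDR = 0.0279, edgeR). Both passed an FDR of 0.05 only. The granins nearest to VGF in function had smaller changes that missed the limit in edgeR: CHGA 0.72 (FDR = 0.0554), SCG2 0.54 (FDR = 0.326), CHGB 0.03 (FDR = 0.973) and SCG3 -0.20 (FDR = 0.615) on the log2 scale.

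In CHD7 KO cells, where VGF was not called, 1 gene of the secretory list was called up and 1 down, beside 0.337% up and 0.234% down among all genes. SYT4, a synaptotagmin of granules, rose from 1.34 and 0.655 CPM to 8.73 and 9.31 CPM (log2 fold change 3.17, FDR = 0.00116, edgeR). CHGA fell from 134.6 and 104.3 CPM to 50.2 and 62.8 CPM (log2 fold change -1.08, FDR = 0.00696, edgeR). CADPS2, a factor for granule exocytosis, was at 0.84 (FDR = 0.0195) and SV2A, a vesicle protein, at 0.75 (FDR = 0.0359) on the log2 scale in the same edgeR fit. In HERVH KO cells no gene of the list was called. SCG2 there had 2.27 and 1.89 CPM against 8.54 and 7.48 CPM in WT (log2 fold change -1.94, FDR = 0.0396, edgeR).

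As VGF also marks neurons and neuroendocrine cells, 7 markers of these cells were read beside it, of which 6 were tested. In HERVH KD, beside 0.0809% up and 0.136% down among all genes, 0 of these markers were called up and 1 down. Their summed level was 131.9 to 167.4 CPM in WT, 201.4 to 250.4 CPM in HERVH KD and 69.1 to 79.7 CPM in CHD7 KO libraries, with most of it from CHGA. TUBB3, a neuronal tubulin, had 4.11 and 6.83 CPM in WT and 13.4 and 21.1 CPM in HERVH KD (log2 fold change 1.65, FDR = 0.0366, edgeR), whereas STMN2, a neuronal growth protein, fell from 12.1 and 7.20 CPM to 1.81 and 1.97 CPM (log2 fold change -2.35, FDR = 0.00605, edgeR). NEUROD1 was at most 0.231 CPM in every library. Of 4 endoderm markers, FOXA2 had 1.39 and 4.96 CPM in WT and 10.3 and 9.69 CPM in HERVH KD (FDR = 0.0718, edgeR). The summed level of the 4 endoderm markers was 1.99 to 5.66 CPM in WT and 11.9 to 12.1 CPM in HERVH KD, with GATA6 at or under 3 counts throughout. That of 5 fibroblast markers was 304.7 to 439.5 CPM in WT and 356.2 to 477.0 CPM in HERVH KD. LUM was at 0 and DCN at or under 3 counts in every library. Of the 5 markers, 2 were tested and 0 called, with log2 fold changes of -0.33 and 1.26 in HERVH KD. The part of such cells in the level of VGF was not tested. In these bulk samples, more cells of a kind and more RNA per cell cannot be told apart.

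Among 27 tested genes within 500 kb of VGF, the median log2 fold change in HERVH KD was 0.25, against 3.48 for VGF itself. VGF did not rise alone there: 1 of the 27 was called up, with a larger log2 fold change than VGF. That gene is not named here. AP1S1, which encodes a subunit of a clathrin adaptor and lies 0.913 kb from VGF, had 26.5 and 22.3 CPM in WT and 19.9 and 38.4 CPM in HERVH KD (log2 fold change 0.25, FDR = 0.634, edgeR). The HERVH KD replicates of AP1S1 lay on either side of the WT values.

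**Figure D2:**
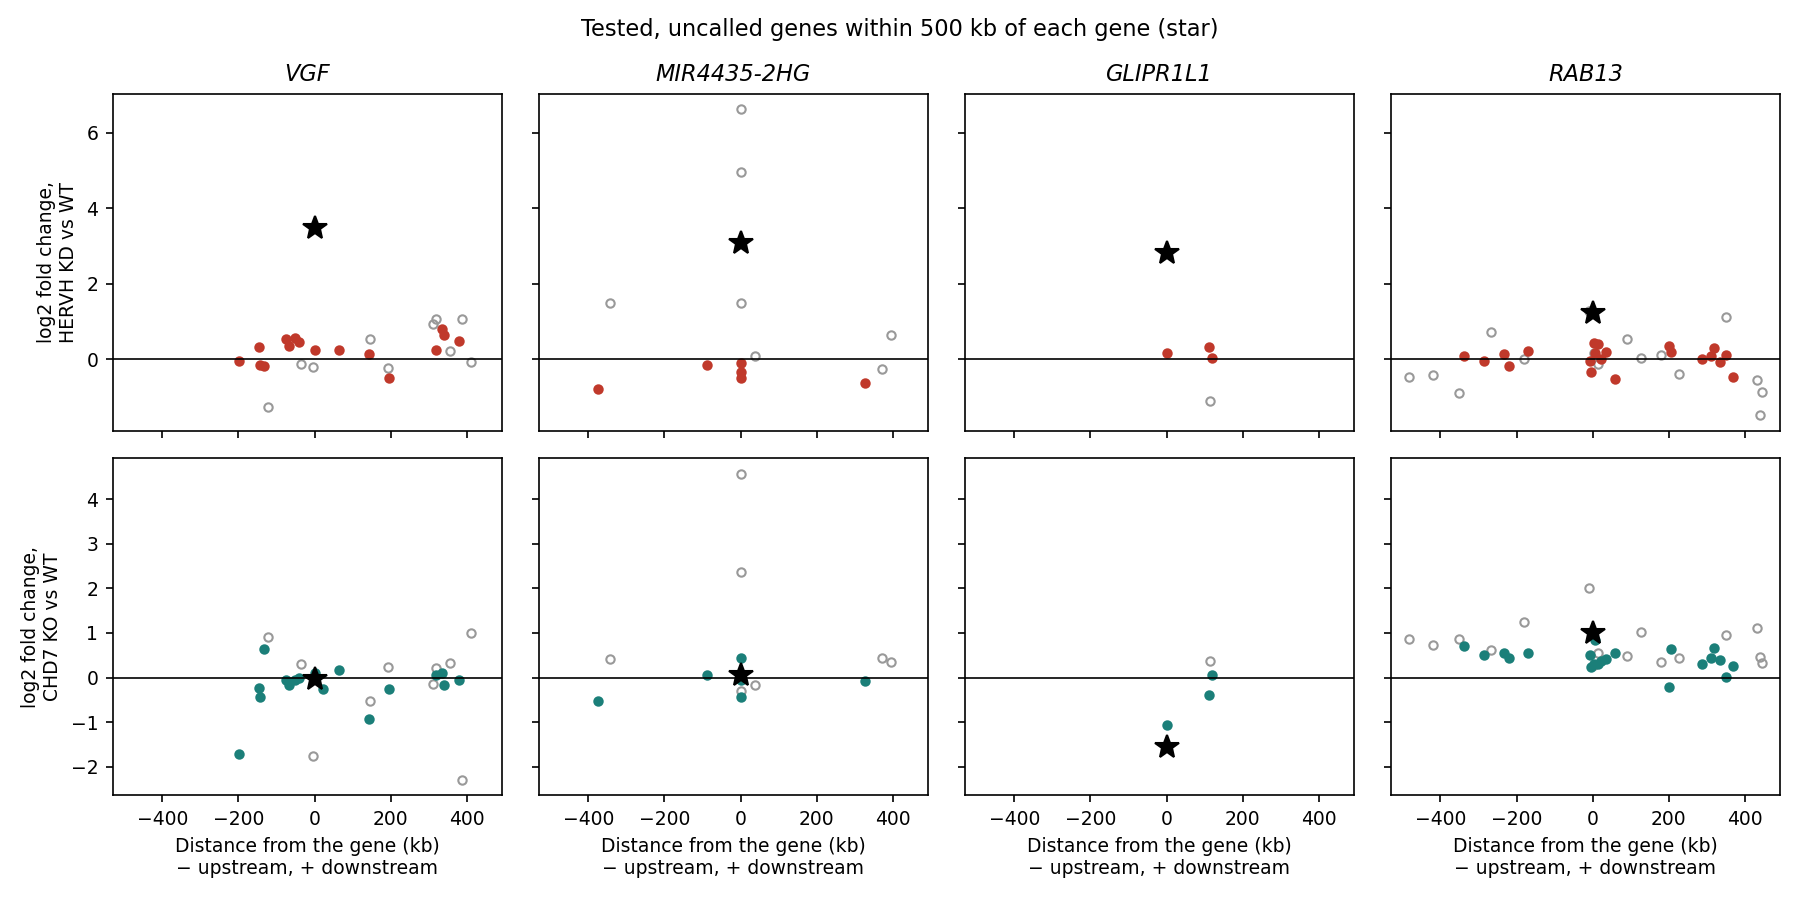
Log2 fold change against WT (vertical axis) of tested genes that were not called, by their distance in kb (horizontal axis, 0 for genes that overlap) from VGF, MIR4435-2HG, GLIPR1L1 and RAB13, in HERVH KD (upper row) and CHD7 KO (lower row). Stars are the named genes, filled points are genes at 4 CPM or more in WT and open points are lower genes. VGF lies at 3.48 in HERVH KD, and nearly all genes around RAB13 lie above 0 in CHD7 KO.

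MIR4435-2HG (ENSG00000172965) lies on chromosome 2, on the minus strand, at chr2:111763592-112280953 in the annotation used for places, where BCL2L11, ACOXL and other genes overlap its long span. It had 40 and 51 reads in WT, 356 and 227 in HERVH KD, 42 and 46 in CHD7 KO, and 66 and 32 in HERVH KO. The level was 1.85 and 2.39 CPM in WT, 19.5 and 16.5 CPM in HERVH KD, 1.94 and 2.47 CPM in CHD7 KO, and 2.82 and 1.73 CPM in HERVH KO. The HERVH KD libraries lay above the other 6, which overlapped. The log2 fold change was 3.09 (SE 0.312), or 8.50-fold, in HERVH KD. By edgeR it was 0.06 (SE 0.326, FDR = 0.981) in CHD7 KO and 0.12 (SE 0.323, FDR = 1.0) in HERVH KO, both uncalled.

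MIR4435-2HG has a near-identical copy, CYTOR (also LINC00152, ENSG00000222041), at chr2:87754300-87936259 on the plus strand. Of the 50-base windows in transcripts of MIR4435-2HG, 27.6% also occur in CYTOR, so that reads there cannot be assigned to one gene. CYTOR had 38 and 51 reads in WT, 263 and 183 in HERVH KD, 39 and 56 in CHD7 KO, and 49 and 36 in HERVH KO. It is itself among the 19 genes called up, with a log2 fold change of 2.74 (SE 0.318). Summed, the pair had 4.19 ± 0.826 CPM (SD, n = 2) in WT, 31.9 ± 2.85 CPM in HERVH KD, 4.61 ± 1.23 CPM in CHD7 KO and 4.29 ± 0.882 CPM in HERVH KO. The sum was thus 7.61-fold higher in HERVH KD than in WT. MIR4435-2HG held 45.1% to 57.5% of the pair's counts in the 8 libraries. Reads aligned to more than 1 place were counted apart from genes, and the sum does not recover those of the shared windows.

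The sequences before both starts are shown because they are copies of each other. They are the 250 bases before the RefSeq starts, each found once on GRCh37, at chr2:112252739-112252988 on the minus strand for MIR4435-2HG and at chr2:87754696-87754945 on the plus strand for CYTOR. Capitals mark motifs.

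MIR4435-2HG: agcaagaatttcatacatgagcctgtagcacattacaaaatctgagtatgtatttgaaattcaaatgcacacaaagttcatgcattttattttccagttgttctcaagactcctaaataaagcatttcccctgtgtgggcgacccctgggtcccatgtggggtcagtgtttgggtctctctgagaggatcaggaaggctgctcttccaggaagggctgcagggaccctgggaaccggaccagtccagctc

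CYTOR: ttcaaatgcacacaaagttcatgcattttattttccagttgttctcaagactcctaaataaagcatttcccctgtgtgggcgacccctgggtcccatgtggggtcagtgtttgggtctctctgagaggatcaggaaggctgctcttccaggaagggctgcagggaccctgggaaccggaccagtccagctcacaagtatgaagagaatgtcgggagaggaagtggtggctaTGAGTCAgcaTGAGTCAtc

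With 50 bases after each start added, 241 bases aligned between the pair and 241 were identical. The AP-1 motif (TGANTCA) began 19 and 9 bases before the CYTOR start and was in 6.57% of all windows. The first of these matches lies in the shared stretch, at base 41 after the RefSeq start of MIR4435-2HG, because the start is placed differently in the copies. No motif searched was found in the 250 bases before MIR4435-2HG, which says only that those letters are not in that window.

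Of 13 tested genes that overlap MIR4435-2HG or lie within 500 kb, 0 were called in HERVH KD. Among all genes, 0.0809% were called up and 0.136% down, so this says little about so few genes. BCL2L11, an initiator of cell death, had 28.3 and 28.2 CPM in WT and 30.4 and 22.4 CPM in HERVH KD (log2 fold change -0.10, FDR = 0.824, edgeR). ACOXL, which also overlaps, had a log2 fold change of -0.33 (FDR = 0.366, edgeR). ANAPC1, 88.3 kb away, was at -0.16 (FDR = 0.594) on the log2 scale in the same edgeR fit. BUB1, a mitotic checkpoint kinase gene 328 kb away, was at -0.62 (FDR = 0.0738, edgeR). The median log2 fold change of the 13 genes was -0.10. ENSG00000270190, a lncRNA gene inside the span on the same strand, had 0 and 0.0468 CPM in WT and 1.10 and 0.728 CPM in HERVH KD (FDR = 0.0437, edgeR). The profiles most like that of MIR4435-2HG over the 8 libraries were those of CYTOR (r = 0.988), ANXA1 (r = 0.983), which encodes a phospholipid-binding protein of inflammation, and VGF (r = 0.981). Each r takes in the HERVH KD libraries that chose MIR4435-2HG and VGF, so genes raised there rank high by construction. ANXA1 had a mean of 0.535 CPM in WT and 3.94 CPM in HERVH KD.

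**Figure D3:**
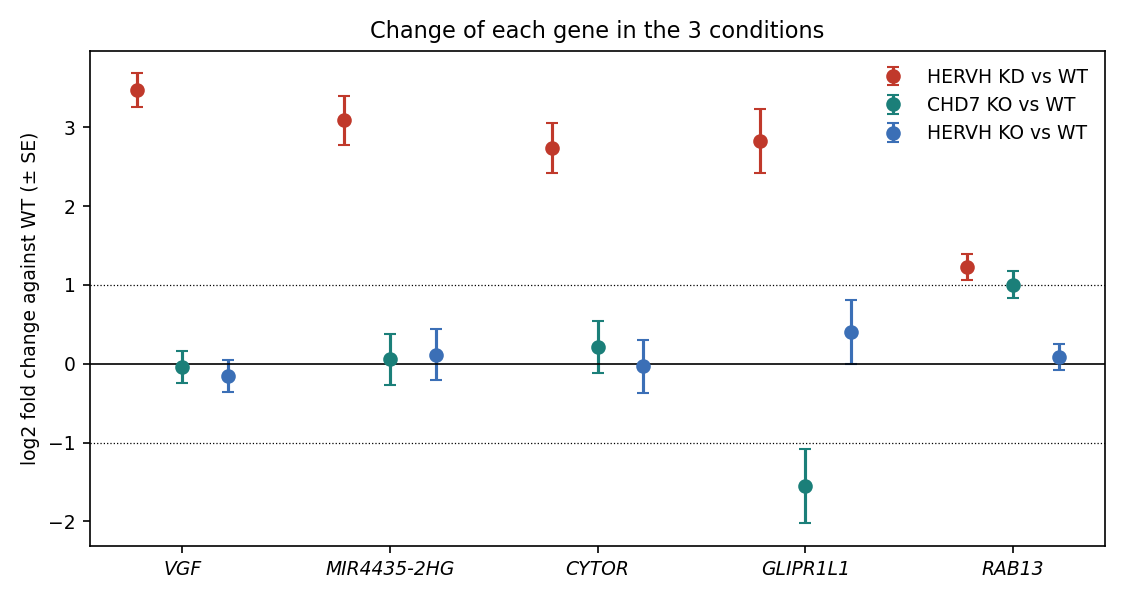
Log2 fold change against WT (vertical axis, error bars 1 SE from the edgeR fit, dotted lines at 2-fold) of each gene in HERVH KD, CHD7 KO and HERVH KO. All genes lie above 1 in HERVH KD, which chose them, and within about 1 SE of 0 in HERVH KO. RAB13 lies at 1.0 and GLIPR1L1 at -1.55 in CHD7 KO.

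GLIPR1L1 (ENSG00000173401) lies at chr12:75728450-75764340 on the plus strand, in a cluster with GLIPR1 and GLIPR1L2. It had 68 and 41 reads in WT, 269 and 293 in HERVH KD, 9 and 25 in CHD7 KO, and 63 and 75 in HERVH KO. The level was 3.14 and 1.92 CPM in WT, 14.7 and 21.3 CPM in HERVH KD, 0.416 and 1.34 CPM in CHD7 KO, and 2.69 and 4.05 CPM in HERVH KO. The HERVH KD libraries lay above all others, and the CHD7 KO libraries lay below all others, while WT and HERVH KO overlapped. The log2 fold change was 2.83 (SE 0.405), or 7.10-fold, in HERVH KD. Per kilobase of exon the mean was 1.87 ± 0.639 RPKM (SD, n = 2) in WT and 13.3 ± 3.46 RPKM (SD, n = 2) in HERVH KD cells.

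In CHD7 KO cells the log2 fold change of GLIPR1L1 was -1.55 (SE 0.474), which missed the limit (FDR = 0.144, edgeR). Over the alternatives tried the FDR ranged from 0.00635 with no expression filter to 0.717 without CHD7 KO replicate 1, where the change was -0.90. In HERVH KO cells it was 0.40 (SE 0.411, FDR = 1.0, edgeR). The direct comparison of HERVH KO with CHD7 KO gave 1.95 (SE 0.467, FDR = 0.0405, edgeR), again short of the limit of 0.01. There 0.349% of the genes tested were called up and 0.767% down, and the comparison shares its CHD7 KO libraries with the one against WT. Without HERVH KO replicate 2 it was 1.64 (FDR = 0.265, edgeR).

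CAPS2, on the opposite strand, overlaps GLIPR1L1 and had 5.82 and 4.49 CPM in WT, 7.61 and 3.93 CPM in HERVH KD, and 2.26 and 2.64 CPM in CHD7 KO. Its log2 fold change was 0.17 (FDR = 0.819) in HERVH KD and -1.07 (FDR = 0.179) in CHD7 KO by edgeR, both uncalled. As the strand setting of the counting is not stated, reads of the 2 genes may not be fully separated. GLIPR1, 110.2 kb downstream, was at 0.34 on the log2 scale (FDR = 0.518, edgeR) in HERVH KD, and GLIPR1L2 was at most 0.470 CPM and was not tested. Of 14 genes of the CAP superfamily, 6 were tested and 0 were called in either direction in HERVH KD, with a median of 0.10. Among all genes, 0.0809% were called up and 0.136% down. PI15, a CAP-domain protease inhibitor, had 3.14 and 1.03 CPM in WT and was at or under 3 counts in both HERVH KD libraries (FDR = 0.0271, edgeR). CRISPLD2, a secreted CAP-domain protein, had 4.57 and 2.99 CPM in WT and 10.2 and 11.3 CPM in CHD7 KO (log2 fold change 1.51, FDR = 0.0154, edgeR).

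The profile most like that of GLIPR1L1 was that of MT2A, a metallothionein, with r = 0.976 over the 8 libraries. These again include the HERVH KD libraries that chose GLIPR1L1. MT2A had 5.03 and 2.48 CPM in WT, 17.8 and 66.1 CPM in HERVH KD, and 0.601 and 2.42 CPM in CHD7 KO. In HERVH KO it had 3.04 and 4.80 CPM. It shared the high HERVH KD values, with replicates far apart. In CHD7 KO it was not called (log2 fold change -1.35, FDR = 0.495, edgeR), and replicate 2 lay close to WT replicate 2. MIR302C (r = 0.967), a microRNA gene of pluripotent cells, and COA8 (r = 0.965), a mitochondrial assembly factor, followed. The 250 bases before the GLIPR1L1 start held 1 match among the motifs searched, a CCAAT box on the opposite strand, 221 bases before the start.

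RAB13 (ENSG00000143545) lies at chr1:153954093-153958834 on the minus strand and had the smallest change of the 4 genes in HERVH KD and the highest WT level. It had 1077 and 837 reads in WT, 1974 and 1374 in HERVH KD, 1857 and 1721 in CHD7 KO, and 1138 and 847 in HERVH KO. The level was 49.7 and 39.1 CPM in WT, 108.1 and 100.1 CPM in HERVH KD, 85.8 and 92.6 CPM in CHD7 KO, and 48.6 and 45.7 CPM in HERVH KO. HERVH KD and CHD7 KO libraries lay above WT and HERVH KO libraries with no overlap. The log2 fold change in HERVH KD was 1.23 (SE 0.167), or 2.34-fold, the smallest among the 19 genes called up. Per kilobase of exon the mean was 16.2 ± 2.72 RPKM (SD, n = 2) in WT, 37.8 ± 2.06 RPKM in HERVH KD and 32.4 ± 1.73 RPKM in CHD7 KO cells.

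RAB13 was the 1 gene of the 19 that was also called up in CHD7 KO cells, with a log2 fold change of 1.0 (SE 0.166, 2.01-fold, FDR = 0.00643, edgeR), where 79 genes (0.337%) were called up. LCP1, an actin-bundling protein of the same 19, fell just short of that limit with a larger log2 fold change of 2.25 (FDR = 0.01002, edgeR), and SFN (1.47, FDR = 0.0492) and ZNF239 (1.24, FDR = 0.0255) passed an FDR of 0.05 only. FLNC, an actin cross-linker, was the 1 gene of the 19 called down there (log2 fold change -1.17, FDR = 0.00285, edgeR). The call of RAB13 rests on every library of the comparison: the FDR was 0.0234 without WT replicate 1, 0.147 without WT replicate 2, 0.0736 without CHD7 KO replicate 1 and 0.104 without CHD7 KO replicate 2, with log2 fold changes of 0.84 to 1.22. Without HERVH KO replicate 1 or 2, which enter the joint fit, it was 0.0168 or 0.0162 by edgeR. In HERVH KO cells the change was 0.09 (SE 0.165, FDR = 1.0, edgeR). Between HERVH KO and CHD7 KO it was -0.92 (SE 0.166, FDR = 0.00773, edgeR), which is less than 2-fold. The FDR of that difference rose to between 0.0697 and 0.191 when any 1 of these 4 libraries was left out.

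The genes around RAB13 were also higher in CHD7 KO cells. Of 37 genes tested within 500 kb, 36 had a positive log2 fold change, with a median of 0.51, against -0.01 over all genes tested. Within 5000 kb, 234 of 250 tested genes were positive, with a median of 0.54, and 22 were higher and 0 lower at an FDR below 0.05. Among 143 genes of that region with a mean log2 CPM above 2, 7 had a larger log2 fold change than RAB13. CREB3L4, a transcription factor gene 7.26 kb away, had 17.4 and 18.5 CPM in WT and 32.7 and 31.5 CPM in CHD7 KO (log2 fold change 0.84, FDR = 0.0317, edgeR). The part of this region-wide shift in the CHD7 KO value of RAB13 was not tested. In HERVH KD the median log2 fold change of the tested genes was 0.04 within 500 kb and 0.08 within 5000 kb. As this contrast chose RAB13, its rank among them there is no result.

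Part of the RAB13 sequence recurs elsewhere. Of the 50-base windows in RAB13 transcripts, 21.8% also occur in 31 other genes. Up to 21.2% occur in a single one of these, whose level is not given here. A processed pseudogene (ENSG00000237493) at chr12:56374216-56374819 shares 11.6% of the windows. It had 21 and 34 reads in WT, 93 and 76 in HERVH KD, 58 and 65 in CHD7 KO, and 39 and 30 in HERVH KO, in the order of RAB13 itself. It made up 1.91% to 5.24% of the sum of both. That sum was 2.39-fold higher in HERVH KD and 2.02-fold higher in CHD7 KO than in WT, close to the values of RAB13 alone. It does not cover reads of the other genes that share windows.

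Other RAB genes were read beside RAB13. RAB proteins switch between GTP-bound and GDP-bound states to direct vesicle traffic. Of 61 other RAB genes listed, 58 were tested, and in HERVH KD cells 0 were called up and 1 down. Among all genes, 0.0809% were called up and 0.136% down, so 0 called up says little about a list of this size. The median log2 fold change of the 58 was -0.28. The highest was 0.79, and RAB13 itself was chosen on this contrast. The gene called down was RAB3C, of vesicle exocytosis, with 42.5 and 44.2 CPM in WT and 19.7 and 15.2 CPM in HERVH KD (log2 fold change -1.31, FDR = 0.00661, edgeR). The closest relatives of RAB13 were RAB8A at 0.11 (FDR = 0.804), RAB8B at -0.65 (FDR = 0.113) and RAB10 at -0.09 (FDR = 0.805) in the edgeR fit. In CHD7 KO cells, RAB29, which serves the Golgi and lysosomes, was the other RAB gene called up, from 25.0 and 27.6 CPM to 65.9 and 57.8 CPM (log2 fold change 1.23, FDR = 0.00471, edgeR).

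Of 16 genes for RAB13's exchange factors, effectors, GDP dissociation inhibitors and junction proteins, 16 were tested. In HERVH KD and CHD7 KO 0 were called, with medians of -0.03 and -0.03. Among all genes, 0.0809% were called up and 0.136% down in HERVH KD, and 0.337% and 0.234% in CHD7 KO. MICALL2, the effector that links RAB13 to tight junctions, is among the 16. RAB13 mRNA is carried to cell protrusions along with a known group of mRNAs. Of 8 such genes, 0 were called in either comparison, beside the same shares among all genes. The highest log2 fold change of the 8 in HERVH KD was 0.10. The profiles most like that of RAB13, with the HERVH KD libraries that chose it included, were those of ENSG00000265334 (r = 0.980), LCP1 (r = 0.969) and CPMER (r = 0.960). LCP1 had means of 0.744 CPM in WT, 4.33 CPM in HERVH KD, 3.57 CPM in CHD7 KO and 0.692 CPM in HERVH KO. The 250 bases before the RAB13 start held GC boxes that began 78 and 22 bases before it, and no other motif searched.

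**Figure D4:**
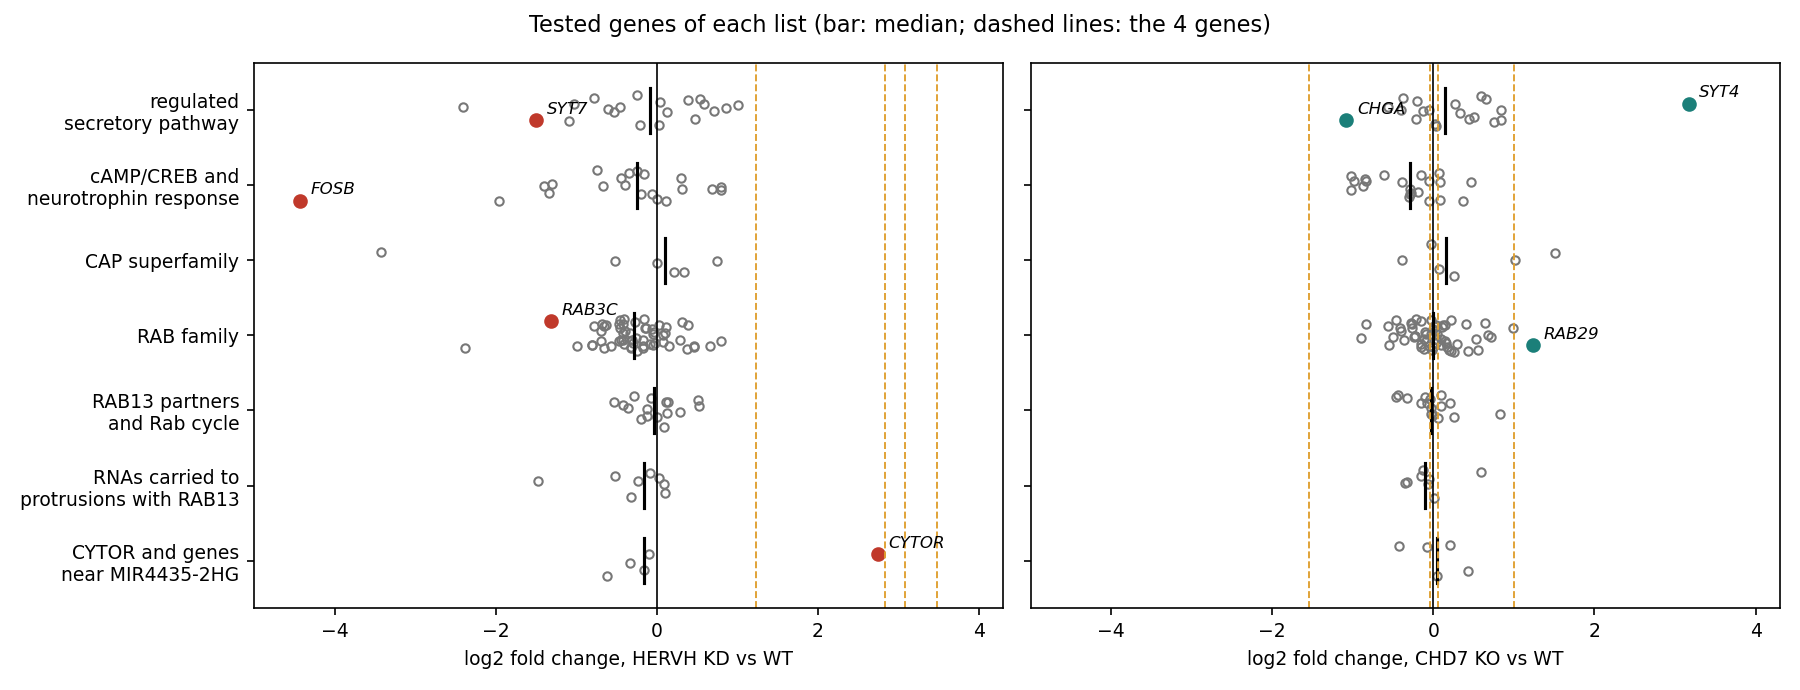
Log2 fold change against WT (horizontal axis) of tested genes of 7 lists (rows) in HERVH KD (left) and CHD7 KO (right). Open points are genes not called, filled points with names are called genes, black bars are list medians and dashed lines mark VGF, MIR4435-2HG, GLIPR1L1 and RAB13. In HERVH KD the list medians lie between -0.28 and 0.10, and CYTOR is the only listed gene called up.

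The 4 genes shared the rise in HERVH KD that chose them. In CHD7 KO cells 1 of 4 was called up and 0 were called down, beside 0.337% up and 0.234% down among all genes. In HERVH KO cells 0 were called in either direction, where 0.0298% of all genes were called down and none up. VGF, MIR4435-2HG and GLIPR1L1 were called in neither knockout. GLIPR1L1 had its lowest values in CHD7 KO, and RAB13 had CHD7 KO values near those of HERVH KD. The order of levels per exon length in HERVH KD was VGF (62.1 ± 14.3 RPKM), RAB13 (37.8 ± 2.06 RPKM) and GLIPR1L1 (13.3 ± 3.46 RPKM), and in WT it was RAB13, VGF and GLIPR1L1. No such level is given for MIR4435-2HG, whose annotated span differs between annotation versions.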

How the data were processed

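The 8 libraries were rRNA-depleted and strand-specific. The authors aligned reads to hg19 by STAR with Ensembl GRCh37.75 genes and deposited HTSeq-count read counts for 57773 genes, unnormalized. Tool versions and the counting strand are not given in the sources used here. Per library, 34.9% to 42.5% of reads lay outside genes and 3.81% to 4.75% were ambiguous. Reads aligned to more than 1 place, 2011543 to 2428435 a library, formed a further row. Such rows were left out.

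From the counts, edgeR 4.0.16 (R 4.3.3) gave TMM-scaled CPM and log2 CPM (prior count 2). Its filterByExpr kept 23474 genes. The quasi-likelihood test used all 8 libraries with condition as the sole factor (4 residual degrees of freedom) and was tested on simulated data. Alternatives were DESeq2 1.42.0, RLE scaling, other filters, a replicate block, a GC correction (loess span 0.3), the 4 libraries compared and each replicate left out. An exchanged pairing and the tracking of CYTOR were added after seeing the data. Symbols, places, exon length and GC came from GENCODE v44 on GRCh37, which placed 55538 genes (96.1%) and differs from the annotation used for counting. Promoters were RefSeq's of GRCh38, kept where the exact sequence occurs on GRCh37. Tables were made with Python 3.11.15.

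The members, gene lists and tests were chosen with earlier results of these data known. The text names the 4 genes, their close relatives, list genes past an FDR of 0.05 (up to 5 per list and comparison), neighbours within 100 kb or past that FDR, and the 3 most similar profiles among tested genes that spanned at least 1 on the log2 scale. The genes CHD7, ESRG, NEUROD1, FOXA2, FLNC, SFN, ZNF239, BDNF, LUM, DCN, GATA6 and the RAB13 pseudogene were chosen after values were seen. A gene that these rules reach is not reported here. With 2 replicates, no outlier test was made.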

Additional observations from a re-analysis of the deposited data

How the results depend on the processing

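The rise of the 4 genes in HERVH KD kept its direction under all 17 alternatives tried beside the fit reported, the exchanged block included, with log2 fold changes of 3.20 to 3.64 for VGF (3.21 to 3.64 with replicates left out), 2.91 to 3.28 for MIR4435-2HG, 2.52 to 3.22 for GLIPR1L1 and 1.07 to 1.41 for RAB13. This contrast chose the genes, so a call that was kept is no support for them, and only losses are given. The call was lost for MIR4435-2HG without WT replicate 1 and for GLIPR1L1 without either WT replicate. For RAB13 the call was lost without either WT or either CHD7 KO replicate and in the fit of 4 libraries. VGF was lower with the GC correction (3.22, or 3.20 with the replicate block). In CHD7 KO its small change turned to 0.18 with the GC correction and to 0.21 with the block added. Leaving out replicates moved it between -0.15 and 0.10 there and between -0.24 and 0.0031 for HERVH KO against CHD7 KO. For MIR4435-2HG these ranges were -0.10 to 0.25 in CHD7 KO, -0.28 to 0.43 in HERVH KO and -0.35 to 0.36 between them, and for RAB13 in HERVH KO -0.076 to 0.29. CYTOR ranged from -0.17 to 0.55 in CHD7 KO, -0.21 to 0.20 in HERVH KO and -0.57 to 0.15 between them. RAB13 in CHD7 KO ranged from 0.84 to 1.22, with the call lost in 6 of 8. GLIPR1L1 passed the limit with no expression filter in CHD7 KO (-1.55), and between HERVH KO and CHD7 KO by DESeq2 (1.97), with no filter (1.96), in the fit of 4 libraries (1.96) with the GC correction and block (1.95) and without HERVH KD replicate 1 (FDR = 0.00264, edgeR) or 2 (FDR = 0.00325, edgeR), with a range of 1.32 to 2.98 over replicates left out.

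Counts of called genes depended more on the setting, and the cause was not tested. In HERVH KD 51 genes were called, against 81 by RLE scaling, 373 by DESeq2, 506 with no filter, 6 in the fit of 4 libraries, 332 with the GC correction, 291 with the block added to it, and 2 to 825 with replicates left out. In CHD7 KO 134 were called, against 286 by DESeq2, 368 with no filter, 349 in the fit of 4 libraries, 293 with the GC correction, 278 with the block added to it, and 26 to 384 with replicates left out. In HERVH KO 7 were called, against 14 by DESeq2, 30 with no filter, 16 with the GC correction, 14 with the block added to it, and 5 to 21 with replicates left out. The replicate numbers are only numbers: deviations of same-numbered libraries correlated at -0.233 to 0.427. The replicate block alone left the members' calls as they were, and with the CHD7 KO numbers exchanged 207 genes were called in CHD7 KO. At 9 to 75 reads a library outside HERVH KD, counting error limits GLIPR1L1 and MIR4435-2HG most.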
